A study of Mus musculus with 24 samples.

Results

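The insulin-like growth factor genes followed here were the ligand Igf1, its receptor Igf1r and the binding protein genes Igfbp2, Igfbp3, Igfbp4, Igfbp5, Igfbp6 and Igfbp7. They were taken as the probe sets to which the platform annotation gave 1 of these symbols alone. In counts of calls and passes below, a member is 1 such probe set, so a gene with several is counted for each. Of the 8 genes listed, 7 were measured, by 11 of the 12422 probe sets on the array that were not Affymetrix controls. The exception was Igfbp5, because its probe set 100566_at carries the symbol Tmem119 as well. Only probe sets brighter than the array median on 2 or more arrays were tested, and 10 of the 11 passed. The probe set that did not pass, 101570_at of Igfbp4, gave 11.4 and 7.43 on controls 1 and 2 and between 0.799 and 23.3 on the tumour arrays.

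Signals were measured on 24 arrays. The tumour arrays, 22 in number, came from 11 cell lines derived from lung tumours that arose in mice carrying both a c-Myc and a c-Raf transgene, aged 8 months. The lines were A2B1, A2C12, B3, betaD5, betaD10, cRAF_cMYC, gammaA3, gammaA7, gammaB8, gammaD1 and gammaD12, kept in DMEM with 10% fetal calf serum for up to 50 passages. The other 2 arrays held control alveolar type II cells of healthy animals without the transgenes, whose age and strain were not given apart. The promoter behind each transgene was not given in the sources used here either. Control cells came from trypsin-digested lung and were not described as passaged, so transformation and culture cannot be told apart in any difference between lines and control. A title with no replicate number marks an array called unnumbered here: all lines have 1, A2C12, B3, cRAF_cMYC, gammaA7 and gammaB8 also have arrays numbered 1 and 2, and A2B1 has 1 numbered array. The labels do not give the culture behind a repeat array or the animals behind a control array, so the p-values measure only the spread between these samples, which may be technical. The line titled gammaB8 is named gammaA8 in another of its labels.

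IGF-I, the product of Igf1, is a secreted growth factor that binds a receptor tyrosine kinase, the product of Igf1r. The receptor signals through insulin receptor substrates to PI3 kinase and AKT, and through GRB2 and SOS to RAS, RAF and ERK. The binding proteins hold IGFs in extracellular fluid, keep them from the receptor or release them when proteases cut the binding protein, and some act on cells without IGF. In the lung, fibroblasts and macrophages are known sources of IGF-I.

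Promoter stretches of a pair of members are shown because the results turn on them: a probe set of Igfbp4 was called higher in the lines, and Igfbp2 was the gene called between arrays of the same lines. Each run holds the 250 bases before the RefSeq transcription start on build GRCm38.p6, 5′ to 3′ on the + strand, from chr1:72824230-72824479 for Igfbp2 and chr11:99040994-99041243 for Igfbp4. Capitals mark the motifs found.
Igfbp2: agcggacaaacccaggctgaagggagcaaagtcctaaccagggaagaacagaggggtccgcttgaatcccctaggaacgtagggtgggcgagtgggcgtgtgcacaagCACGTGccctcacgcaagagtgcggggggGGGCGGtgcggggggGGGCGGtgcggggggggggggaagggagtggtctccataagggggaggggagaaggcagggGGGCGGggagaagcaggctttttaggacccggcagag
Igfbp4: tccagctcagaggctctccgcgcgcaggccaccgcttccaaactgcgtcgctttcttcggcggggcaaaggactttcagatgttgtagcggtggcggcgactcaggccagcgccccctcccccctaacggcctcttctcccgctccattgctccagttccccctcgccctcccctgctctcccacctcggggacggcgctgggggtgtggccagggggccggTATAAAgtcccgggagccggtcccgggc
The motifs searched on both strands were the E-box CACGTG, which MYC with its partner MAX is known to bind, the AP-1 site TGACTCA, the TATA box TATAAA and the GC box GGGCGG. The Igfbp2 run held 1 E-box, starting 142 bases before the start, and 3 GC boxes, at 113, 98 and 37 bases. The Igfbp4 run held 1 TATA box at 28 bases. Of 32851 such windows in the RefSeq table, 6.02% held this E-box, 32.7% a GC box, 12.4% a TATA box and 4.46% the AP-1 site. Windows were found for 8 of 8 members, and among the others Igf1r had 2 GC boxes, Igfbp7 had 4, and Igfbp6 had a TATA box at 148 bases. A further start of Igfbp2 had an AP-1 site at 39 bases. These matches describe letters and are not measured binding. On chromosome 1, Igfbp2 and Igfbp5 are neighbouring coding genes, and Igfbp3 lies next to Igfbp1 on chromosome 11.

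Controls 1 and 2 differed at least 2-fold in 952 of 7670 tested probe sets. Summed signals of 12 myeloid markers were 46278 and 26751 on controls 1 and 2 and 193 to 397 in the lines. Sums of 8 type II markers were 7552 and 35394 against 45.3 to 117, with none above its array's median on any tumour array. On controls 1 and 2, 4 and 7 of these 8 were above the median. Lyz2, at 6099 and 5582 on the controls, stands in both the myeloid and the type II list, and makes up most of the type II sum of control 1. Array medians were 93.8 and 108 on the controls and 53.2 to 75.5 on tumour arrays, and the ratio of 3′ to 5′ actin signals, a sign of RNA quality, was 1.47 and 1.64 against 1.03 to 1.32. Sums of 8 endothelial markers were 897 and 2779 against 48.9 to 130.5, and of 10 fibroblast markers 4824 and 2653 against 6211 to 26285. Col1a1 was higher on every tumour array (3467 to 13437, against 1147 and 164), while Tcf21 (2.57 to 24.6, against 60.0 and 99.3) was lower and Pdgfra had a tumour median of 140.0 against 697 and 353. In such bulk samples fewer cells of a type and less RNA per cell cannot be told apart. The part of these cell types and of RNA quality in the results below was not tested. Some arrays went against their labels. After removal of each probe set's mean, cRAF_cMYC replicate 1 was closest to gammaA7 replicate 1 (r = 0.73), and replicate 2 of these lines likewise (r = 0.83). The unnumbered arrays of A2B1 and B3 were closest to each other (r = 0.48). The unnumbered array of gammaA7 was closest to that of gammaB8 (r = 0.27), and that of gammaB8 to betaD10 (r = 0.40). The next values leave out the 4 numbered arrays of cRAF_cMYC and gammaA7 alone. Without these 4 arrays, the same number of members (3) was called against control and 0 passed the test among lines. The log2 differences from control were then 1.27 for Igf1 on 95546_g_at, 0.22 for Igf1r, 0.23 for Igfbp2, -0.63 for Igfbp3 on 95083_at, -0.68 for Igfbp4 on 94222_at, -1.03 for Igfbp6 and 0.57 for Igfbp7, and none of these was called. The other members' values stand with the results.

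The tumour lines were compared with control cells to find which of these genes differ between cultured tumour cells and the control cells from digested lung. Igfbp4, by the brighter of its tested probe sets, was higher in all 11 lines than on both control arrays. Its other tested probe set was not (log2 difference -0.70). Igf1, by 1 of its probe sets, and Igfbp3, by 1 of its probe sets, were lower. Igf1r and Igfbp2 did not pass the test. Called here means a limma adjusted p under 0.05 (Benjamini-Hochberg over 7670 probe sets) and at least a 2-fold difference of log2(signal + 32), between 11 line means and 2 control arrays. Counts of lines above, below or between the controls, and orders of lines, use mean log2 levels. Of the 10 member probe sets tested, 1 was higher and 2 were lower, while 16.5% and 21.4% of all tested probe sets were, 37.8% in either direction. The members' share of calls thus lay near the background. Which probe sets were called depended on scaling. With each array centred on its median 2 member probe sets were higher, Igfbp4 on 101571_g_at (2.93) and Igfbp7 (1.04), and 0 lower. Igf1 on 95545_at (-0.89) and Igfbp3 on 95082_at (-0.65) stayed negative but under 2-fold. Of all tested probe sets 2421 were then higher and 923 lower, against 1265 and 1638 as deposited.

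**Figure D1:**
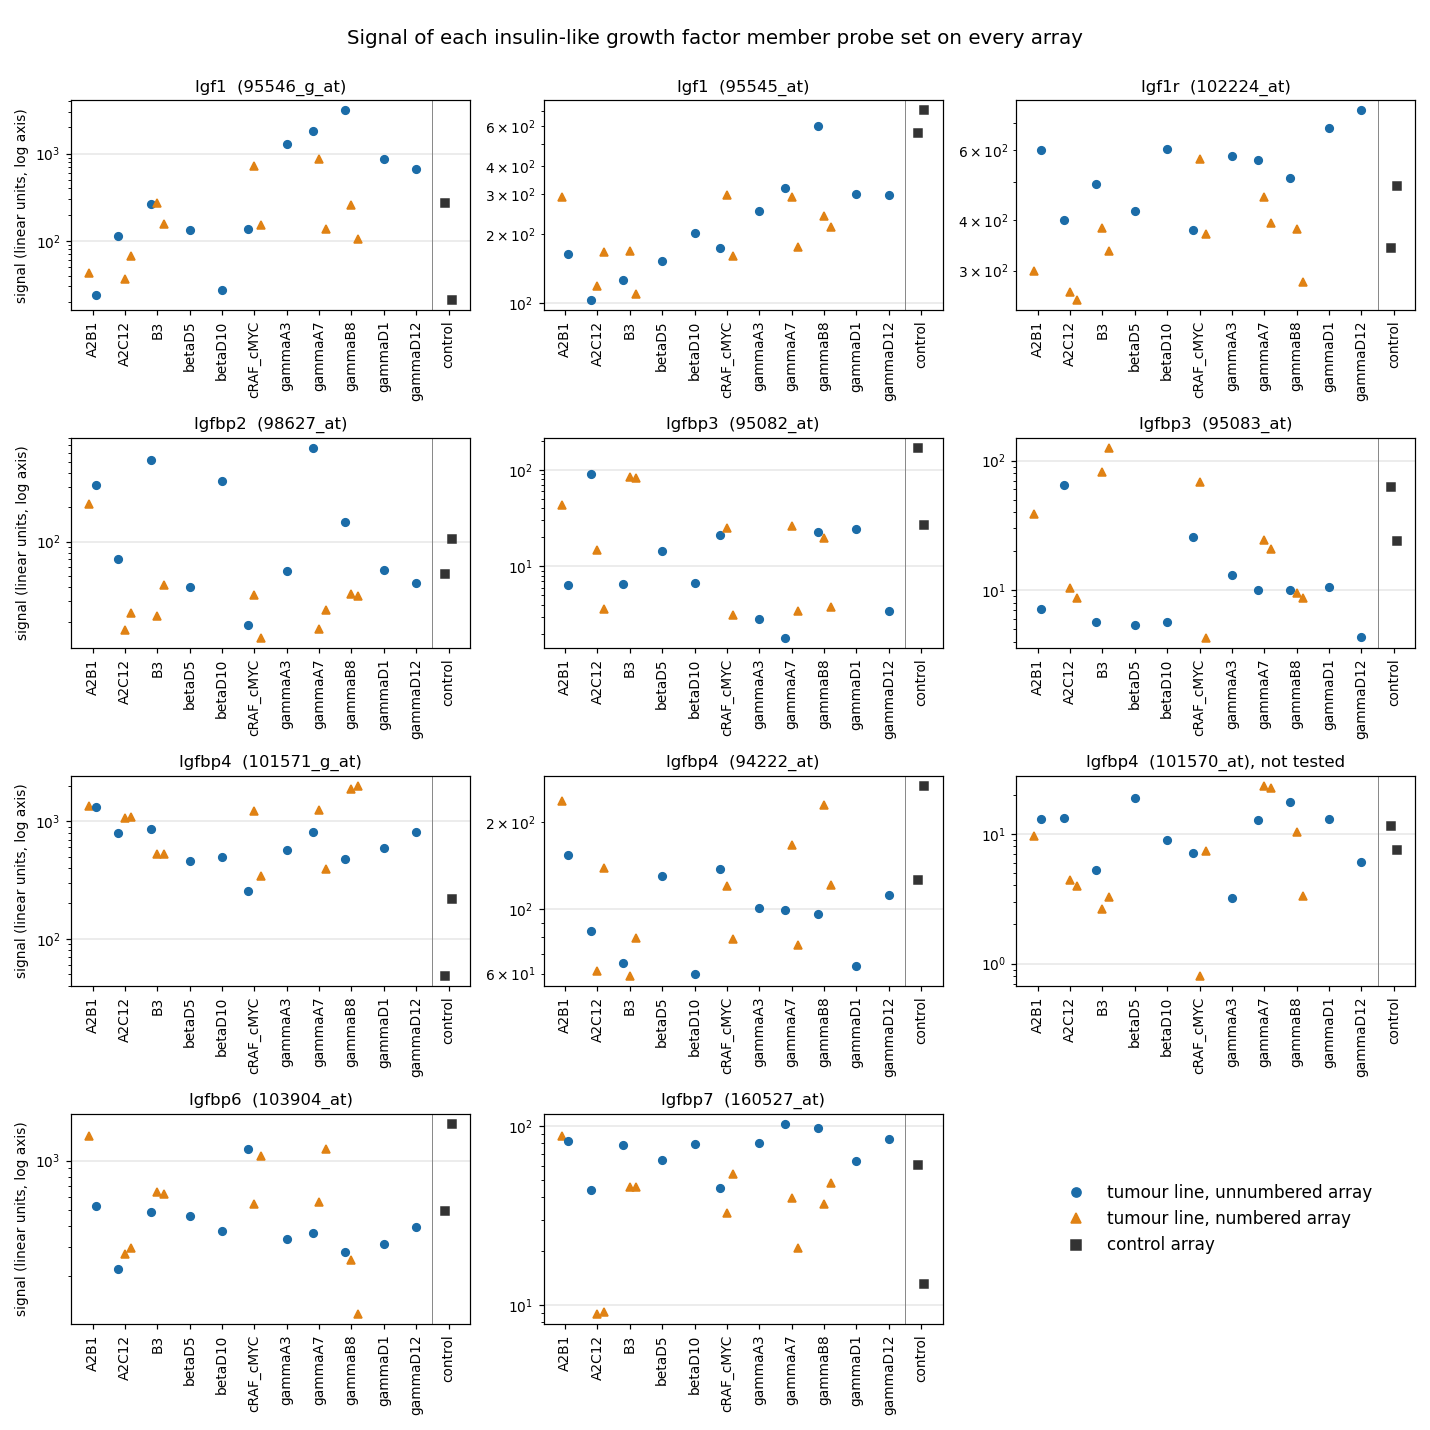
Signal (linear units on a log axis) of each of the 11 member probe sets on every array, by line, with unnumbered tumour arrays as circles, numbered ones as triangles and control arrays as squares; each point is 1 array. For Igfbp4 (101571_g_at) every tumour array lies above both controls, while for Igf1 (95546_g_at) tumour arrays run from 23.7 to 3166.

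For the ligand, the probe sets of Igf1 went different ways. On 95546_g_at the controls gave 273 and 20.8, and tumour arrays gave 23.7 at the lowest, 153 at the median and 3166 at the highest. The suffix _g_ is Affymetrix's mark for a probe set on a group of similar sequences. Line means averaged 526 ± 479 (SD, n = 11 lines), and their spread on the log2 scale was wider than that of 99.9% of tested probe sets. The log2 difference from control was 1.20 (SE 1.03, limma adjusted p = 0.317) and did not pass. It was -0.066 without control 2 and 2.46 without control 1, and control 2 itself stood at -2.53 relative to control 1 on that scale.

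On the other probe set, 95545_at, controls 1 and 2 gave 560.2 and 704, and tumour arrays gave 102 at the lowest, 189 at the median and 598 at the highest. All 11 line means were below both controls, as they were for 29.7% of tested probe sets. A single tumour array, the unnumbered array of gammaB8 at 598, was above control 1. Line means averaged 229 ± 72.1 (SD, n = 11 lines), which differed from control on the log2 scale by -1.42 (SE 0.28, limma adjusted p = 0.000343). With each array centred on its median the difference was -0.89 (adjusted p = 0.00785) and fell short of 2-fold. Centring raised the median difference of all tested probe sets from -0.048 to 0.49, so it shifts every member upwards by a similar amount. Without the 4 numbered arrays of cRAF_cMYC and gammaA7 the value was -1.41.

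Within the lines, the order of mean log2 levels of Igf1 on 95546_g_at ran from betaD10 (5.90) and A2B1 (6.01) to gammaD1 (9.83) and gammaA3 (10.37). The 5 lines above both controls were gammaA3, gammaA7, gammaB8, gammaD1 and gammaD12, and the other 6 lines lay between the controls by mean log2 level; by mean signal cRAF_cMYC, at 337, was above them too. These 5 also held the upper end of the order on 95545_at, from 252 in gammaA3 to 351 in gammaB8. What the name gamma stands for was not given, and this grouping was noticed after the values were seen. Arrays of a line were far apart: gammaB8 gave 3166 on its unnumbered array and 261 and 106 on its numbered ones. For gammaA7 they gave 1833, 869 and 136, so its replicate 2 and both numbered arrays of gammaB8 lay below control 1 (273). For cRAF_cMYC they gave 136, 723 and 151. The moderated F-test of limma among the 11 lines did not pass for either probe set (adjusted p = 0.237 for 95546_g_at and 0.284 for 95545_at). Over the 11 line means the probe sets had a Pearson r of 0.62, from the same arrays.

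**Figure D2:**
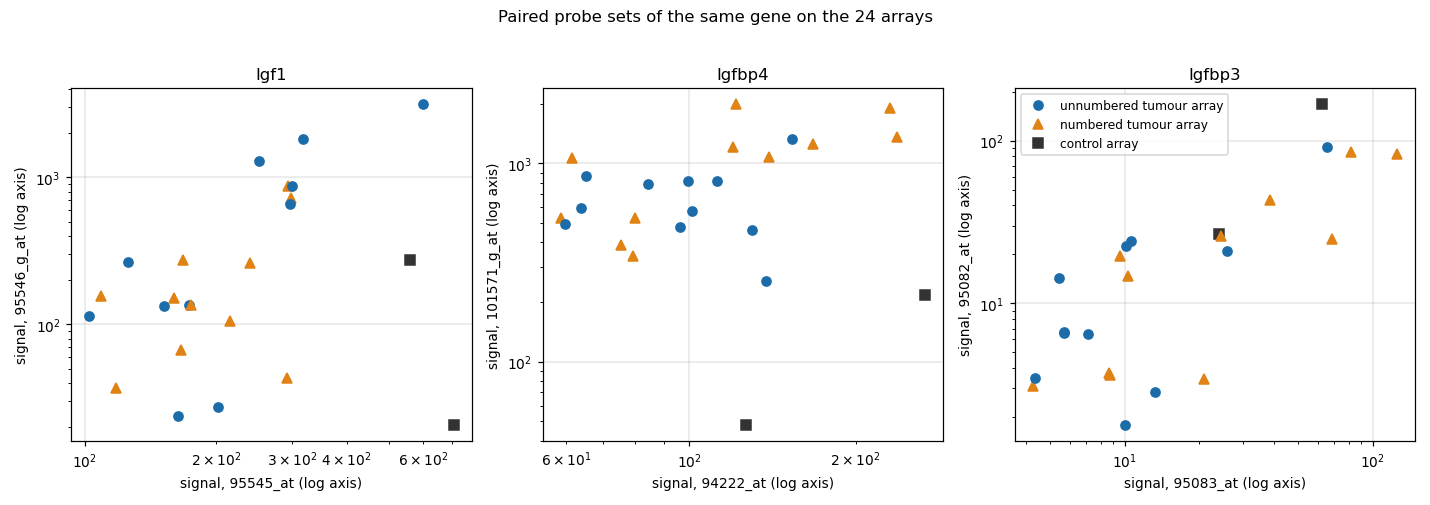
Signals of paired probe sets of Igf1, Igfbp4 and Igfbp3 against each other (linear units, log axes), each point 1 of 24 arrays, with circles for unnumbered tumour arrays, triangles for numbered ones and squares for controls. For Igfbp4 both controls lie under every tumour array on the upright axis while control 2 lies right of all of them (267 on 94222_at), and for Igf1 the controls lie at 560.2 and 704 on 95545_at but at 273 and 20.8 on 95546_g_at.

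The receptor gene Igf1r did not pass the test against control. Controls 1 and 2 gave 341 and 489, and tumour arrays gave 253 at the lowest, 412 at the median and 754 at the highest, so the groups overlapped. Line means averaged 499.9 ± 136 (SD, n = 11 lines), which differed from control on the log2 scale by 0.21 (SE 0.26, limma adjusted p = 0.495). Its sign was negative without control 1 (-0.028). The order ran from A2C12 (306) to gammaD1 (678) and gammaD12 (754), and no neighbouring lines differed by more than the SD within groups of 0.36 on the log2 scale. The F-test among lines gave an adjusted p of 0.351.

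Igfbp2 encodes a binding protein with higher affinity for IGF-II than for IGF-I. Its signals on controls 1 and 2 were 52.4 and 105, and tumour arrays gave 14.3 at the lowest, 41.2 at the median and 661 at the highest. Of 11 line means 2 (A2B1 and betaD10) lay above both controls by mean log2 level, 4 below and 5 between, and by mean signal gammaA7 (234) and B3 (193) were above them as well. The difference from control was 0.015 on the log2 scale (SE 0.56, limma adjusted p = 0.983). It was 0.59 with unnumbered arrays alone and -0.28 with numbered arrays where a line had them, neither past the test. The spread of line means was wider than that of 98.5% of tested probe sets. The order ran from cRAF_cMYC (22.5) and A2C12 (37.0) to A2B1 (264) and betaD10 (341). The SD within groups, 1.23 on the log2 scale, exceeded every step between neighbours, and the F-test among lines gave an adjusted p of 0.596.

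Igfbp3 encodes the main carrier of IGFs in serum. On 95082_at, controls 1 and 2 gave 168 and 26.6, and tumour arrays gave 1.79 at the lowest, 14.5 at the median and 90.8 at the highest. Its signals were dim: 4 of 24 arrays were above their array's median. Of 11 line means 9 lay below both controls and 2, A2C12 and B3, between them. Line means averaged 19.3 ± 16.3 (SD, n = 11 lines), which differed from control on the log2 scale by -1.19 (SE 0.35, limma adjusted p = 0.00746). The call rested on control 1: without that array the difference was -0.30 (adjusted p = 0.473), and without control 2 it was -2.07. It was also under 2-fold after quantile normalization (-0.87), after centring (-0.65) and with an offset of 100 (-0.65), but stayed called at -2.50 with an offset of 1. Without the 4 numbered arrays of cRAF_cMYC and gammaA7 it was -1.20 and called. On 95083_at, with 62.6 and 24.1 on the controls and 4.26 to 125 on tumour arrays, the difference was -0.60 (SE 0.28, adjusted p = 0.0681). B3 was the highest line on both probe sets, with line means of 58.0 and 70.8, and its numbered arrays gave 85.0 and 82.4 on 95082_at where its unnumbered array gave 6.57. The F-test among lines gave adjusted p of 0.869 and 0.726.

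Igfbp4 encodes a binding protein that inhibits IGF action in many cells until the protease PAPP-A cuts it. On 101571_g_at, controls 1 and 2 gave 48.0 and 216, and tumour arrays gave 256 at the lowest, 800.2 at the median and 1999 at the highest. The suffix _g_ again marks a group of similar sequences. Every tumour array was above both controls. All 11 line means were too, as they were for 25.4% of tested probe sets. Line means averaged 798 ± 336 (SD, n = 11 lines), which differed from control on the log2 scale by 2.39 (SE 0.41, limma adjusted p = 0.000102). The difference was 1.58 without control 1 and 3.21 without control 2, called in each case. It was 2.33 without the 4 numbered arrays of cRAF_cMYC and gammaA7.

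The other tested probe set of Igfbp4, 94222_at, did not go the same way. Controls 1 and 2 gave 127 and 267, and tumour arrays gave 58.7 at the lowest, 100.4 at the median and 238 at the highest. Of 11 line means 8 lay below both controls and 3 between, a log2 difference of -0.70 (SE 0.29, limma adjusted p = 0.0483), which was under 2-fold. Which of the probe sets follows the Igfbp4 transcript was not tested. By mean log2 level on 101571_g_at the order ran from betaD5 (8.94) and cRAF_cMYC (9.00) to gammaB8 (10.30) and A2B1 (10.43). A2B1 and gammaB8 were also the highest lines on 94222_at. Arrays of gammaB8 gave 479, 1900.2 and 1999 on 101571_g_at, the unnumbered array first, and those of cRAF_cMYC gave 256, 1216 and 339.8. The replicate 1 and 2 arrays of gammaA7, at 1254 and 389.7, were near the like-numbered arrays of cRAF_cMYC. The F-test among lines gave adjusted p of 0.644 and 0.379.

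Igfbp6 encodes a binding protein that prefers IGF-II. Its signals were 491 and 1667 on controls 1 and 2, and tumour arrays gave 117 at the lowest, 429.7 at the median and 1407 at the highest. Of 11 line means 7 lay below both controls and 4 between. Line means averaged 504 ± 260 (SD, n = 11 lines), which differed from control on the log2 scale by -1.002 (SE 0.47, limma adjusted p = 0.0734), short of the threshold. Without control 1 it was -1.85 and called (adjusted p = 0.0129), and without control 2 it was -0.15 (adjusted p = 0.845). By mean log2 level the order ran from gammaB8 (7.88) and A2C12 (8.19) to A2B1 (9.81) and cRAF_cMYC (9.83).

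Igfbp6 had the lowest adjusted p of the members in the F-test among lines, 0.163. Of the 10 member probe sets 0 passed that test, in which 3.42% of all tested probe sets did, and at an unadjusted p under 0.05 there was 1, Igfbp6 (0.0216). The spread within groups in that test included the gap between the 2 controls, 1.70 on the log2 scale for Igfbp6. With the 6 lines that have repeat arrays alone, and so without the controls, Igfbp6 passed (adjusted p = 0.0197). The arrays of A2C12 gave 221, 271 and 294, those of B3 gave 489.7, 648 and 628, and those of gammaB8 gave 278, 251 and 117, the unnumbered array first. Those of cRAF_cMYC gave 1174, 545 and 1058, those of gammaA7 gave 362, 562 and 1183, and those of A2B1 gave 528 and 1407, so arrays of these lines overlapped each other. Without the 4 numbered arrays of cRAF_cMYC and gammaA7 the adjusted p was 0.22 among 11 lines and 0.0176 among the 6.

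Igfbp7 encodes a secreted protein of the family with weak IGF binding. Controls 1 and 2 gave 60.2 and 13.1, and tumour arrays gave 8.88 at the lowest, 50.9 at the median and 103 at the highest. Of 11 line means 6 lay above both controls and 5 between, a log2 difference of 0.50 (SE 0.29, limma adjusted p = 0.134). It was called without control 1 (1.019) and after centring (1.04), and was -0.013 without control 2. A2C12 was the lowest line, at 20.6, and lay 0.58 below cRAF_cMYC on the log2 scale, against an SD within groups of 0.48. This was the 1 pair of neighbouring lines, over all tested members, that differed by more than that SD.

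The probe set shared by Tmem119 and Igfbp5 gave 232 and 3357 on controls 1 and 2 and 0.913 to 45.9 on tumour arrays. All tumour arrays were below both controls. Which of these genes it measured was not settled, and it is not counted with the members.

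**Figure D3:**
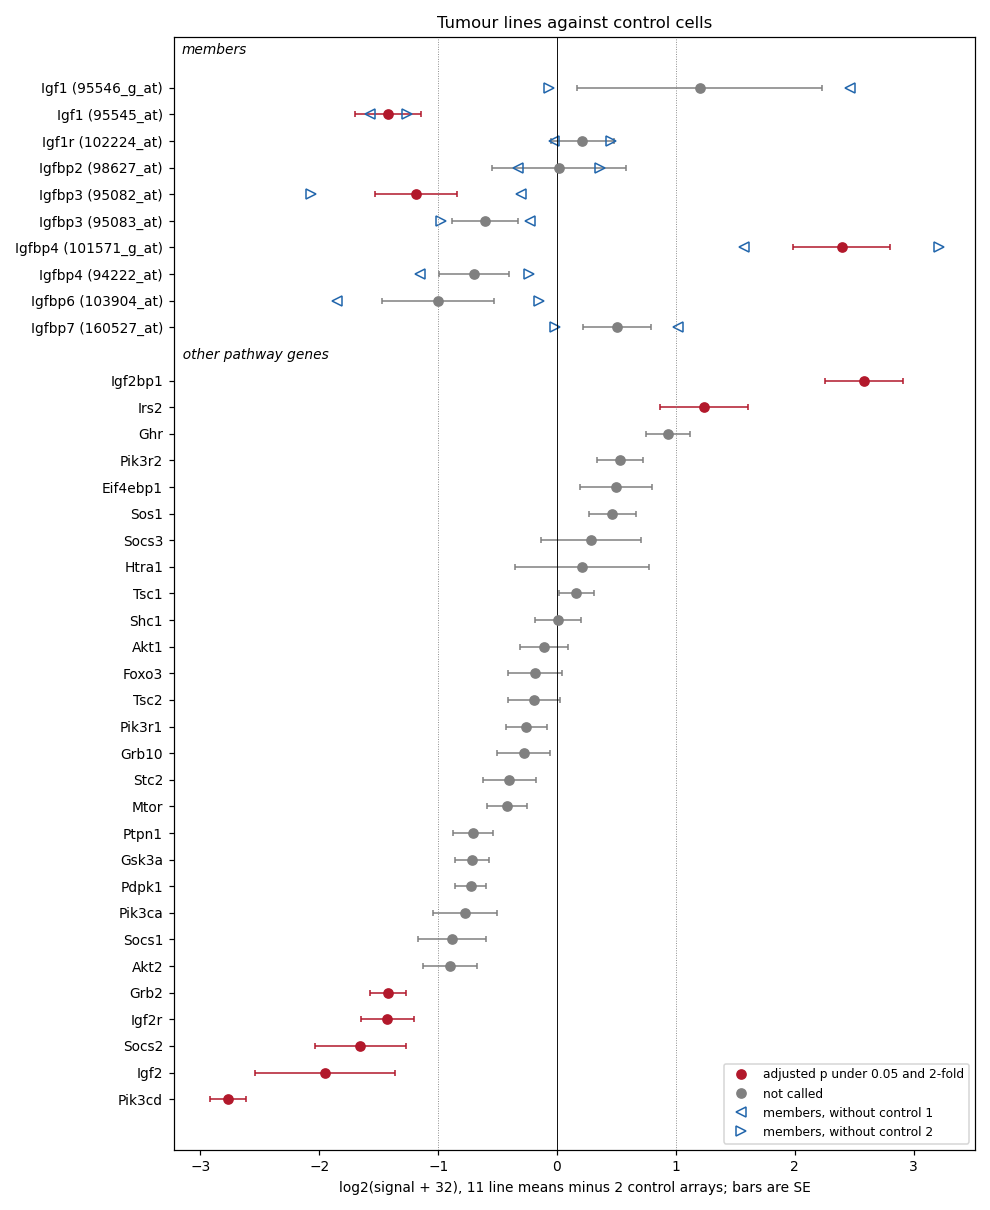
Log2 difference of 11 line means from 2 control arrays (log2(signal + 32), bars are SE) for the 10 tested member probe sets and the 28 tested genes of the wider pathway, in red where called; open triangles give each member's value without control 1 (pointing left) or control 2 (pointing right). Igfbp4 (101571_g_at) stands at 2.39 and keeps its sign without either control, while the triangles of Igf1 (95546_g_at) and Igfbp7 reach zero or below.

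A list of 49 further genes of the pathway, of which 35 were measured and 28 tested, held 2 called higher in the lines, 5 called lower and 21 not called, beside the background of 16.5% and 21.4%. Its median log2 difference was -0.27, against -0.048 over all tested probe sets. The ligand gene Igf2 was among the lower ones, from 319 and 370.1 on the controls to a mean of 116 in the lines (log2 difference -1.95, SE 0.59, limma adjusted p = 0.00879), with lines from 15.5 in betaD5 to 418 in A2C12. Without control 2 the call was lost (-1.85, adjusted p = 0.077). Igf2r, the receptor that takes IGF-II to the lysosome, was lower in all 11 lines, from 540.0 and 440.1 to 171 ± 44.7 (-1.43, SE 0.22, adjusted p = 4.4e-05). The insulin receptor gene Insr was too dim to be tested, at 52.1 and 24.02 on the controls and 3.84 to 23.0 in the lines.

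Downstream of the receptors, Irs2, which links them to PI3 kinase, was higher, from 16.4 and 29.4 to a mean of 107 (log2 difference 1.23, SE 0.37, limma adjusted p = 0.00864), though not without control 1 (1.06, adjusted p = 0.0925). Igf2bp1, which encodes an RNA-binding protein of IGF-II and other mRNAs, was higher in all 11 lines, at 283 ± 97.1 against 31.9 and 5.88 (2.58, SE 0.33). Grb2, the adaptor to RAS, was lower, at 201 ± 26.6 against 547 and 625 (-1.42, SE 0.15). Socs2, which dampens growth hormone signalling, was lower by -1.65 on the log2 scale (SE 0.38), and the call was lost without control 2 (-1.17, adjusted p = 0.0654). Pik3cd, a PI3 kinase subunit of white blood cells, was at 180 and 314 on the controls and at 7.84 ± 1.56 in the lines, beside the myeloid sums given above. It passed the filter through the 2 control arrays alone, and its log2 difference of -2.77 moved with the offset (-4.78 with 1 and -1.66 with 100), so its place among the 5 lower genes is no evidence by itself. Irs2 and Igf2bp1 were above the median on tumour arrays alone, 15 and 22 of them, so their place among the 2 higher genes is no evidence by itself either. The difference of Igf2bp1 also moved with the offset (4.12 with 1 and 1.63 with 100), as did that of Irs2 (1.98 and 0.71). Without the 4 numbered arrays of cRAF_cMYC and gammaA7 the 7 called pathway genes were called too, at values up to 2.67 for Igf2bp1. Ghr, the growth hormone receptor gene, was under 2-fold on its brighter probe set (0.94, adjusted p = 0.000358) and over it on the other (1.15, adjusted p = 0.00177). After centring, Igf2r and Grb2 were each at -0.89 and under 2-fold. Among the lines, 1 pathway gene passed the F-test: Htra1, a secreted protease, ran from 97.8 in gammaB8 to 1147 in A2C12 (adjusted p = 0.00651).

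Unnumbered and numbered arrays of the same line were compared in the 6 lines that have both, with the line as a block. What separates these arrays was not given. Igfbp2 was called, higher on unnumbered arrays by 1.64 on the log2 scale (SE 0.38, limma adjusted p = 0.0156), in 5 of 6 lines. It was 1 of 10 member probe sets, where 0.404% of all tested probe sets were called higher and 0.665% in either direction. In B3 the unnumbered array gave 514 and the numbered ones 22.4 and 41.8. In gammaA7 they gave 661, 17.2 and 25.1, in gammaB8 149, 35.1 and 33.8, and in A2C12 70.3, 16.8 and 23.9. In A2B1 the gap was smaller, 313 against 216, and cRAF_cMYC gave 18.7, 34.4 and 14.3, so its arrays overlapped. The call was lost without B3 (1.34, adjusted p = 0.0659) and without gammaB8 (1.69, adjusted p = 0.0538). It held without cRAF_cMYC and gammaA7 (1.57, adjusted p = 0.0366). After removal of each probe set's mean, the unnumbered array of B3 had r of 0.029 and 0.11 with its numbered arrays. For gammaB8 these were -0.13 and -0.19, for A2C12 0.60 and 0.63, and for A2B1 0.32. In B3 and gammaB8 the line block thus rests on the labels alone. Igfbp2 was brighter than the array median on 9 tumour arrays, of which A2B1 replicate 1 alone was numbered. Numbered arrays alone would thus not have passed it through the filter. The difference moved with the offset, from 2.25 with 1 to 1.13 with 100.

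Igfbp7 was also higher on unnumbered arrays in 5 of 6 lines, by 0.58 (SE 0.14, limma adjusted p = 0.021), under 2-fold, and without cRAF_cMYC and gammaA7 the adjusted p was 0.0676. Its arrays of A2C12 gave 43.7 unnumbered and 8.88 and 9.14 numbered. Igf1r was higher in 5 of 6 lines by 0.42 (SE 0.14, adjusted p = 0.0536), short of the threshold, and without cRAF_cMYC and gammaA7 the value was 0.61 (adjusted p = 0.0332). Igf1 on 95546_g_at varied most from line to line, from -1.15 in cRAF_cMYC to 3.99 in gammaB8, with a fitted difference of 1.03 that did not pass (SE 0.57, adjusted p = 0.243). The lines without numbered arrays were thus measured with the kind of array on which Igfbp2 was higher, and kind and line cannot be told apart for betaD5, betaD10, gammaA3, gammaD1 and gammaD12.

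**Figure D4:**
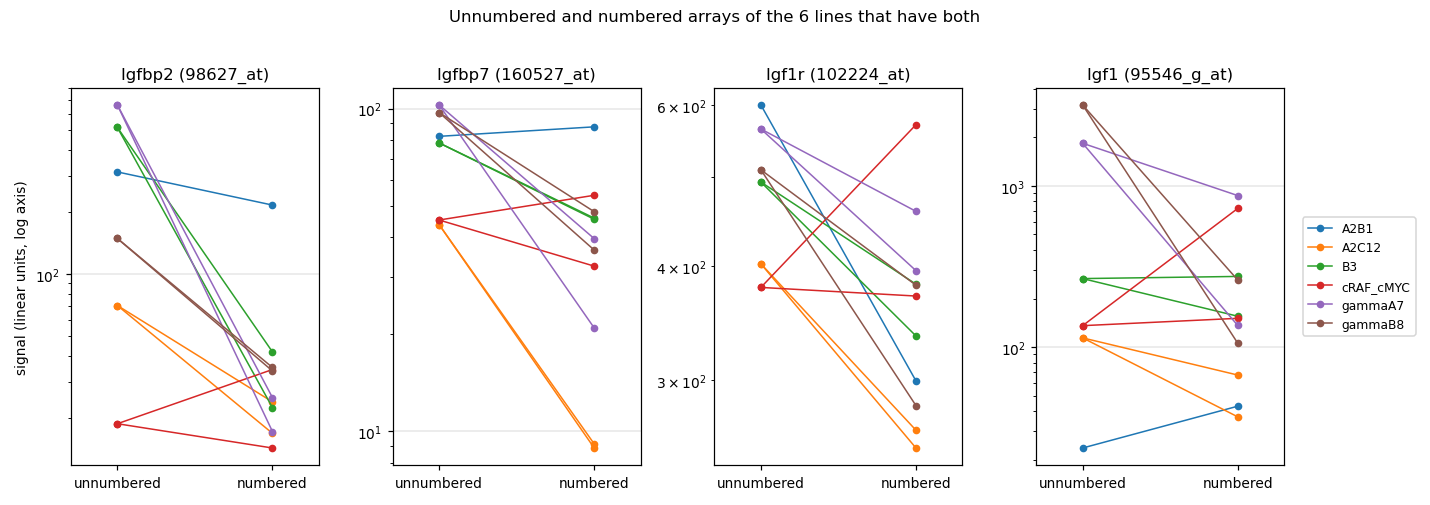
Signal (linear units, log axis) of Igfbp2, Igfbp7, Igf1r and Igf1 (95546_g_at) on the unnumbered array and on each numbered array of 6 lines; lines join arrays of the same tumour line and each colour is 1 tumour line. Igfbp2 drops from 514 to 22.4 and 41.8 in B3 and from 661 to 17.2 and 25.1 in gammaA7, while cRAF_cMYC shows no drop common to its arrays.

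The genes most like each member were taken as the 3 with the highest Pearson correlation of log2 level over the 11 line means, among tested genes outside the members and the pathway list. All points share the arrays described above, and the values are descriptions. Igfbp7 had the closest, Cpe (0.97), Anapc2 (0.97) and App (0.95). Igf1 on 95546_g_at was nearest to Smarca4 (0.88), Icam1 (0.87) and Dclre1a (0.87). Igf1r was nearest to Ostf1, Nfatc3 and Zbtb20, each at 0.90. Igfbp2 was nearest to Armcx2 (0.89), Gm20362 (0.89) and Ighg3 (0.88). By ranks (Spearman) these were at 0.65, 0.59 and 0.71, where the 3 genes of Igfbp7 were at 0.93, 0.95 and 0.85. Igfbp3 was nearest to Il1rn (0.91), Rpusd4 (0.90) and Cdk2ap2 (0.89). Igfbp4 was nearest to Tmem205 (0.89), Art5 (0.87) and Coro1a (0.86), and Igfbp6 to Slc8a1 (0.90), Xdh (0.82) and Alcam (0.82). Between different members the highest was Igf1r with Igfbp7 (0.71), and the lowest was Igf1 on 95545_at with Igfbp3 on 95082_at (-0.57). Igf1 with Igfbp2 was at -0.54 on 95546_g_at and at 0.018 on 95545_at.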

How the data were processed

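Total RNA of 22 tumour line arrays and 2 control arrays was hybridised to an Affymetrix mouse array of 12488 probe sets. The authors deposited intensity signals on a linear scale, made with GCOS per the submitters' processing notes, with no version; their background correction and detection calls were not stated. Trimmed means (2% off each end) were 250.1 to 250.2 on all arrays, so signals had been scaled to 1 target and differences are relative to other RNAs of the same cells. The number of arrays limits the precision.

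Here 66 Affymetrix control probe sets were left out and signals were taken as log2(signal + 32), which compresses low values. With limma 3.58.1 (R 4.3.3), 11 line means were fitted against 2 control arrays (11 residual degrees of freedom). The moderated F-test among lines used 12 groups of 24 arrays, the 11 lines and control (12 residual degrees of freedom). Its spread within groups came from repeat arrays of lines and from the 2 controls, and lines with 1 array were assumed to vary like the rest. Unnumbered and numbered arrays were compared over 17 arrays (10 residual degrees of freedom). The fits were tested on simulated data with independent noise, which lacked the likeness between arrays of different lines described above. A gene in the pathway list stands for its brightest tested probe set. Every member was named, with the called pathway genes, Igf2, Igf2r, Insr and 3 genes most like each member; Htra1 and Ghr were named after their values were seen. The members and lists were chosen with earlier results of these data known. Alternatives were other scalings, offsets, filters and variance models, subsets of arrays, a random line block, other fold minimums, a replicate block and leaving out arrays or lines.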

Additional observations from a re-analysis of the deposited data

Results flagged for a closer look

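Igfbp2 went opposite ways in different lines against the same controls: each array of A2B1 (216 and 313) was above both controls (52.4 and 105), and each array of cRAF_cMYC (18.7, 34.4 and 14.3) was below both. The cRAF_cMYC signals were dim, each under its array's median (56.6, 65.5 and 61.5). Both controls were under theirs too (93.8 and 108). The numbered arrays of A2C12, B3, gammaA7 and gammaB8 (16.8 to 41.8), betaD5 (40.5) and gammaD12 (43.9) were also below both controls. The numbered arrays of cRAF_cMYC were among those that went against their labels. The lower side thus rests on dim signals. The log2 difference of Igfbp2 over all lines was 0.0152. The difference between A2B1 and cRAF_cMYC was not tested by itself, and the F-test over all lines gave a limma adjusted p of 0.596.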

How the results depend on the processing

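The count of 3 members called between lines and control was 5 without control 1 and 1 with a 4-fold minimum, and ran from 3 to 4 when A2B1 replicate 1 or single lines were left out. In the F-test among lines, where 0 members passed, 3 passed with the numbered arrays of 5 lines alone, 2 (Igfbp3 on 95082_at and Igfbp6) when a replicate block was added to these, and 1 (Igfbp6) with the 6 lines that have repeat arrays, with or without the 4 numbered arrays of cRAF_cMYC and gammaA7. With the replicate block over all 24 arrays 0 passed, and 0 when A2B1 replicate 1 or any line was left out. Deviations of same-numbered arrays correlated at 0.0612 to 0.67 for number 1, 0.0588 to 0.698 for number 2 and 0.172 to 0.538 for unnumbered arrays, so not every pair of numbered arrays passed 0.1 and the numbers are not shown to pair the arrays, while every pair of unnumbered arrays did. Between unnumbered and numbered arrays, 1 call became 2 with an offset of 1 (Igfbp7 at 1.04) and ran from 0 to 1 when arrays or lines were left out.

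Against control the sign of Igfbp2 turned with an offset of 1 (-0.17), a floor of 32 (-0.030), numbered arrays (-0.28), line as a random block (-0.021) and without control 1 (-0.33, and 0.36 without control 2), and its values ran from -0.16 to 0.12 when single lines were left out. Without 1 control, Igf1r was at -0.028 (control 1 out) and 0.45 (control 2 out), Igf1 on 95546_g_at at 2.46 and -0.066, and Igfbp7 at 1.019 and -0.013. Where another probe set took its place, Igf1 was at -1.42 and Igfbp4 at -0.70. Between unnumbered and numbered arrays, Igfbp3 on 95082_at turned after centring (0.028), and with arrays or lines left out it ran from -0.45 to 0.22, Igfbp3 on 95083_at from -0.60 to 0.039 and Igf1 on 95545_at from -0.18 to 0.19. Besides the changes given with the results, Igfbp6 was called after quantile normalization (-1.17), with unnumbered arrays (-1.10) and without A2B1 (-1.09), its replicate 1 (-1.06) or cRAF_cMYC (-1.10). Likewise Igfbp3 on 95083_at was called with an offset of 1 (-1.59) and Igfbp4 on 94222_at without control 1 (-1.15). Irs2 lost its call with an offset of 100 (0.71) and with numbered arrays (1.11), and Igf2 with the random block (-1.77). The cause was not tested. Leaving out the numbered arrays, or all arrays, of cRAF_cMYC and gammaA7 was chosen after seeing the data, as was the rerun of the pathway genes under other settings. Higher calls made up 43.6% of all calls with the deposited scaling, 72.4% after centring and 54.9% after quantile normalization.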
